A study of Mus musculus with 6 samples.

Results

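The open chromatin described here was listed inside genes but outside their promoters and exons. Of the 43523 distinct regions in the count table, 9732 (22.4%) were intronic: the table's annotation listed a gene but no promoter and no exon for them, and they lay on an autosome. They fell within 3863 gene identifiers, of which 2079 held 1 intronic region, 1069 held at least 3 and 133 held at least 10, up to 45 in Lsamp. The annotation and RefSeq differ in places: of 8487 intronic regions whose host was found in RefSeq, 8232 had their midpoint within the RefSeq span of that gene, and 124 of the 9732 contained a RefSeq start site. The other autosomal regions were 16314 intergenic, 13555 promoter and 2427 exonic regions. The assay was ATAC-seq: Tn5 transposase cuts accessible DNA and adds adapters to it, and more counts in a region mean that it was more open. The cells were nephron progenitors of CD1 mice, selected from digested kidneys with magnetic beads carrying antibodies against Itga8, an integrin of these cells. There were 3 libraries from embryos at E14.5 and 3 from newborn pups at P0, and each library held the pooled kidneys of a separate litter. The labels give no genotype or treatment that separates the groups, so that stage was the only factor compared. The sex of the animals is not given, and bead selection enriches a cell type without purifying it.

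Introns are removed from the transcript, yet they hold many of the enhancers that act on the gene around them or on other genes nearby. Enhancers become accessible when transcription factors displace nucleosomes, and in general their accessibility differs more between cell states than that of promoters. Nephron progenitors renew themselves through kidney development and are used up soon after birth, when the last of them differentiate into nephron epithelium. An open intronic region may also mark the start of a shorter transcript.

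Sequence was at hand for the intronic regions that contain a start site of the RefSeq promoter table (assembly GRCm38.p6), namely 124 of the 9732, of which 107 contained the whole window of 250 bases that precedes the start. The pair of windows in regions that differed between the stages is printed first, the one inside Aven, which encodes an inhibitor of apoptosis, and the one inside Cd163, which encodes a scavenger receptor of macrophages. The window inside Ing1, which encodes a chromatin-binding growth regulator, is printed as a contrast whose region did not pass the test. Each is given 5′ to 3′ on the strand of its gene, and capitals mark GGGCGGG, the GC box bound by Sp factors.
Aven, chr2:112618167-112618416, plus strand: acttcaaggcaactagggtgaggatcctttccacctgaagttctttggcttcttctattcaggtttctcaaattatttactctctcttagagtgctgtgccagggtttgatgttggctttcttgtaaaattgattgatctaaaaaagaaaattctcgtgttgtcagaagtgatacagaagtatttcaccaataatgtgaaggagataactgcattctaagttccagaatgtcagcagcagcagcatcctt
Gm52877 within Cd163, chr6:124321616-124321865, minus strand: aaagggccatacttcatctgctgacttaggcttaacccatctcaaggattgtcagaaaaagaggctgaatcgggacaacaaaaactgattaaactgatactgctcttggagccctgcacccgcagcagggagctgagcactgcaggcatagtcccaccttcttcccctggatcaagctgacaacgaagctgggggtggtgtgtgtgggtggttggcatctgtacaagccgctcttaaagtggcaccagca
Ing1, chr8:11558160-11558409, plus strand: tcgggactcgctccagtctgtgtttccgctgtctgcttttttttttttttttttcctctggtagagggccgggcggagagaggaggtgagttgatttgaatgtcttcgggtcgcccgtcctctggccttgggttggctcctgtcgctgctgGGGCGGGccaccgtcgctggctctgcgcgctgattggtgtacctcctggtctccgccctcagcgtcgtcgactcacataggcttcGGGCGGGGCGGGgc
These windows were searched on both strands for TGANTCA (AP-1), TGTTTAC (forkhead), ACAATG (Sox), TGACAG (Meis) and GGGCGGG. Over all 32851 windows of the same length, the shares with a match were 6.75%, 3.17%, 10.7%, 15.9% and 23.4%, in that order. The Ing1 window held 3 matches to GGGCGGG, 2 of them overlapping, and none of the other motifs. Neither the Aven window nor the Gm52877 window held any of the 5 motifs. Their GC content was 38.8% and 52.0%, against 61.6% at Ing1. In counts per 1000000 (CPM, with library sizes scaled by TMM), the region around the Aven window (chr2:112616941-112618932) measured 28.4, 29.3 and 29.2 at E14.5 and 18.1, 17.3 and 14.21 at P0, where values of a stage are always given in the order of replicates 1 to 3. All E14.5 libraries were above all P0 libraries, and the log2 fold change was -0.81 (SE 0.19; edgeR adjusted p = 0.0235). In the region around the Gm52877 window (chr6:124321205-124322015), the values were 7.95, 7.97 and 5.14 CPM at E14.5 and 19.99, 14.98 and 14.1 CPM at P0. Here every P0 library was the higher one (log2 fold change 1.21, SE 0.26; edgeR adjusted p = 0.0144). The Ing1 region measured 60.9, 44.1 and 48.6 CPM at E14.5 and 45.9, 40.4 and 67.3 CPM at P0, so that its groups overlapped (log2 fold change 0.01; edgeR adjusted p = 0.994).

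Counts in all regions of the table ranged from 6492996 to 12292629 per library. The median intronic region had 81 to 136 counts in a library, and only 3 to 11 of the 9732 had under 10. Across intronic regions, which are not independent replicates, the Pearson correlation of log2 CPM was 0.830 ± 0.0423 (SD) over the 6 pairs of libraries within a stage and 0.714 ± 0.0602 (SD) over the 9 pairs between stages. The ranges overlapped, at 0.761 to 0.874 for libraries of the same stage and 0.639 to 0.836 for libraries of different stages. The highest value between stages was that of E14.5 replicate 2 with P0 replicate 3. E14.5 replicate 2 correlated less with E14.5 replicates 1 (0.808) and 3 (0.825). As a check of the labelled cell type, 12 of 20 progenitor genes had a promoter region in the table, with Six2 at 26.8, 31.6 and 29.3 CPM at E14.5 and 32.3, 21.0 and 32.4 CPM at P0. Promoter regions were also listed for 8 of 15 stromal, 4 of 12 endothelial, 5 of 13 ureteric and 2 of 10 neural marker genes, and for none of 10 immune and 8 erythroid ones, and none of these passed the test. The median summed promoter level per gene was 39.5 CPM for the progenitor, 19.98 CPM for the stromal, 24.6 CPM for the endothelial, 17.1 CPM for the ureteric and 77.1 CPM for the neural genes. Some markers of other types were thus more open than Six2, such as the neural Elavl4 (137.8, 163.6 and 165.1 CPM over 4 promoter regions at E14.5) and the ureteric Calb1 (53.5, 45.8 and 48.5 CPM). The table names 1 gene per promoter region, so that a gene without one may still be open. Accessibility of a promoter does not show how many cells of a type were in a pool.

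Intronic regions were weak next to promoters and took a small part of the counts. Their median level was 11.2 CPM (5th to 95th percentile 5.00 to 27.5) at a median width of 1427.5 bp, close to the 11.96 CPM of intergenic and 12.1 CPM of exonic regions and below the 25.5 CPM of promoter regions. Intronic regions held 11.4%, 13.6% and 11.9% of the counts in the libraries of E14.5 and 13.6%, 14.3% and 13.0% in those of P0. The 95% Wilson intervals, which cover counting error only, were no wider than the 14.24% to 14.30% of P0 replicate 2. The mean share was 12.26% ± 1.15 (SD, n = 3) in the embryonic and 13.60% ± 0.655 (SD, n = 3) in the newborn libraries, a difference of 1.34 points. The stages overlapped, since E14.5 replicate 2 (13.55%) lay above P0 replicate 3 (12.96%), and the difference is given without a test.

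Across the class, most regions shifted slightly upward from E14.5 to P0 while promoters shifted slightly downward. The median log2 fold change was 0.13 in intronic, 0.10 in exonic and 0.07 in intergenic regions, -0.11 in promoter regions and 0.01 in the whole table. Above 0 were 61.9% of intronic and 33.1% of promoter regions. These medians are relative to the scaling: with scaling factors computed on intronic regions alone the intronic median was 0.03, and with total counts it was 0.19. Without P0 replicate 2 the intronic median was 0.05 and the intergenic one -0.02.

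**Figure D1:**
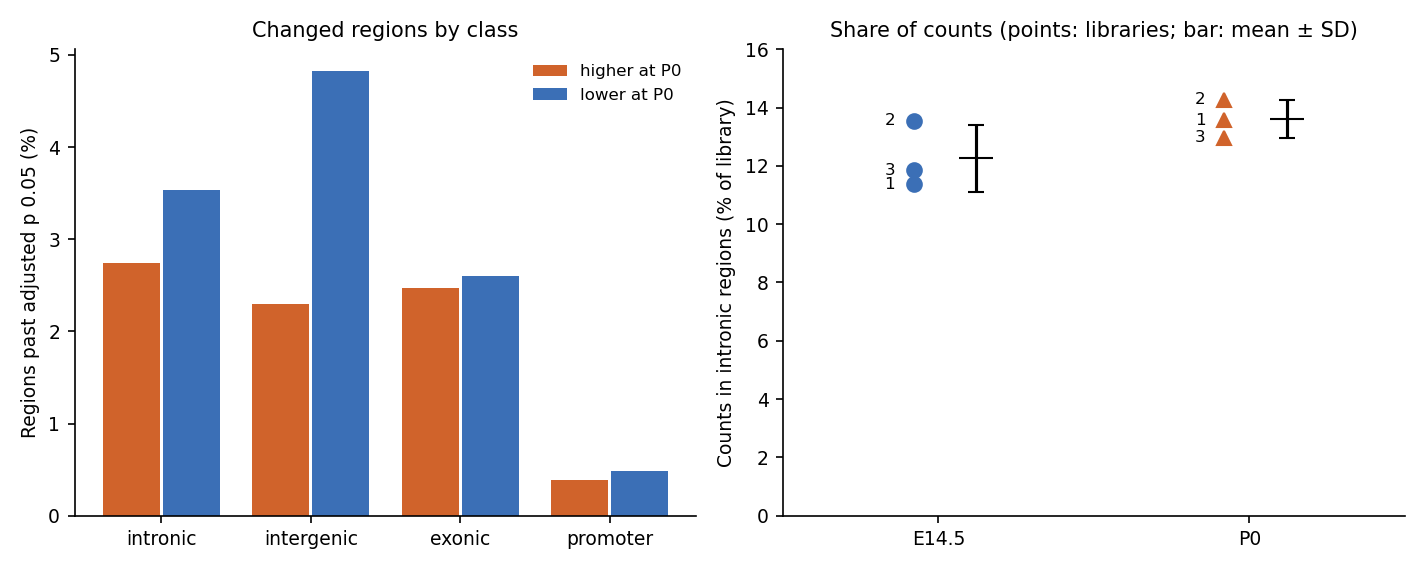
Left, share of regions of each class that passed the test (y axis, %), higher (orange) or lower (blue) at P0; losses were 3.53% and gains 2.74% of intronic regions, and both were below 0.5% in promoters. Right, share of each library's counts in intronic regions (y axis, %; points are libraries with their replicate number, bars the mean ± SD of 3), with E14.5 replicate 2 inside the P0 range.

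A single region counted as called where edgeR's quasi-likelihood test, adjusted by Benjamini-Hochberg over all 43523 regions, gave a p under 0.05. By this rule 611 intronic regions (6.28%) differed between the stages, against a background of 4.73% of all regions. In such pools, a change in the share of cells in which a region is open and a change of openness within each cell cannot be told apart. Higher at P0 were 267 (2.74%; 1.79% of all regions) and lower were 344 (3.53%; 2.94% of all regions). The called share was 7.12% in intergenic regions (2.3% higher, 4.82% lower), 5.07% in exonic regions (2.47% and 2.6%) and 0.871% in promoter regions (0.391% and 0.48%). At an unadjusted p under 0.05 there were 2408 intronic regions (24.7%; 18.7% of all regions). Called gains had a median log2 fold change of 1.07 and called losses one of -1.21, and 420 of the 611 changed at least 2-fold, 171 upward and 249 downward. In all 611 the P0 libraries lay on 1 side of the E14.5 libraries, which the selection favours. Over all 9732 intronic regions the stages did not overlap in 29.8%, beside 24.2% of all regions.

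This count moved strongly with the libraries included. Leaving out E14.5 replicate 3 left 88 calls (22 higher, 66 lower), leaving out P0 replicate 1 left 123 (21 and 102), and leaving out E14.5 replicate 1 left 307 (68 and 239). The fit that left out E14.5 replicate 2 called 904, of which 556 were higher and 348 lower, so that the larger direction turned. All 88 and 122 of the 123 were among the 611. Gains made up 43.7% of the called regions, 29.4% with scaling factors from intronic regions alone, and 50.6% with total-count scaling, where gains (297) outnumbered losses (290).

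The largest gains at P0, of which 9 are described here, were 3.12- to 4.90-fold and began from low levels at E14.5. The strongest lay in Plch1 (chr3:63878408-63879940), which encodes a phospholipase C of the eta class, at 6.52, 6.57 and 3.39 CPM at E14.5 and 31.0, 21.0 and 28.7 CPM at P0. Every P0 library was far above every E14.5 library (log2 fold change 2.29, SE 0.27; edgeR adjusted p = 0.00109). In Fhit (chr14:10005987-10006965), a dinucleotide hydrolase gene at a chromosomal fragile site, the levels were 5.93, 8.06 and 3.27 CPM at E14.5 and 23.0, 22.5 and 15.6 CPM at P0. The P0 libraries were again all above, with P0 replicate 3 nearest to the E14.5 level (log2 fold change 1.80, SE 0.30; edgeR adjusted p = 0.00413). A region in Il1r1 (chr1:40270313-40271049), the receptor gene for interleukin 1, measured 4.39, 6.31 and 3.97 CPM at E14.5 and 15.5, 17.6 and 18.3 CPM at P0. Its P0 libraries lay within a narrow band well above the E14.5 ones (log2 fold change 1.79, SE 0.25; edgeR adjusted p = 0.00217).

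Rad21 encodes a subunit of cohesin, the ring complex that holds chromatin loops. Its intronic region at chr15:51987138-51987700 measured 3.20, 3.15 and 3.74 CPM at E14.5 and 8.75, 13.8 and 10.5 CPM at P0. The E14.5 libraries were nearly equal and all below the P0 ones (log2 fold change 1.70, SE 0.30; edgeR adjusted p = 0.00517). These 4 regions kept their calls in all 17 alternative analyses. The other 5 gains described here lost theirs without E14.5 replicate 3, P0 replicate 1 or both. They lay in Reep3, Bard1, Acer3, Smim20 and the unnamed gene ENSMUSG00000087500.

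Reep3 encodes a protein that shapes the endoplasmic reticulum. Its region (chr10:67053404-67053893) measured 2.61, 2.19 and 1.87 CPM at E14.5 and 7.39, 4.69 and 10.97 CPM at P0, and the P0 libraries spread more widely than the E14.5 ones (log2 fold change 1.81; edgeR adjusted p = 0.0131). The region of Bard1 (chr1:71043422-71044272), a partner of Brca1 in DNA repair, measured 1.54, 4.12 and 3.50 CPM at E14.5 and 8.75, 12.7 and 9.55 CPM at P0 (log2 fold change 1.73; edgeR adjusted p = 0.0123). Its E14.5 replicate 1 was the lowest library. In the ceramidase gene Acer3 (chr7:98258011-98258883), E14.5 was at 3.08, 2.28 and 0.934 CPM and P0 at 5.41, 7.42 and 7.18 CPM (log2 fold change 1.66; edgeR adjusted p = 0.0283). This was the region with the lowest single value of these gains, in E14.5 replicate 3, and its call was also lost without P0 replicate 2. Smim20 (chr5:53272474-53272913; 1.63) and ENSMUSG00000087500 (chr4:47203259-47204061; 1.73) stayed under 4 CPM in the E14.5 libraries and lay above 5 CPM in the P0 ones. The call of Smim20 was also lost without E14.5 replicate 1.

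The largest losses were steadier than the gains: 9 of 10 kept their calls in all 17 alternatives, against 4 of 10. Dpyd, which encodes the enzyme that starts pyrimidine breakdown, held 2 of them. The region at chr3:118698473-118699928 measured 15.2, 17.4 and 18.3 CPM at E14.5 and 3.12, 5.30 and 3.24 CPM at P0. The region at chr3:118854839-118855849 measured 12.5, 20.2 and 24.1 CPM at E14.5 and 3.96, 4.24 and 6.31 CPM at P0. In both, every P0 library was below every E14.5 library, with log2 fold changes of -2.16 (SE 0.27; edgeR adjusted p = 0.00123) and -1.95 (SE 0.29; edgeR adjusted p = 0.00277). They lay 137 and 293 kb from the nearest open promoter region, inside a gene of 871 kb.

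Transcription regulator genes were among the hosts. A region of Tox3 (chr8:90301961-90303272), a high-mobility-group factor, fell from 10.6, 11.999 and 13.8 CPM at E14.5 to 2.29, 3.03 and 2.84 CPM at P0. A region of the zinc finger gene Zfp40 (chr17:23187077-23188152) fell from 11.3, 12.5 and 12.6 CPM to 3.02, 2.72 and 3.79 CPM. In both the stages were well apart, with log2 fold changes of -2.16 and -1.91 and edgeR adjusted p-values of 0.00183 and 0.00242.

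In Nckap5 (chr1:126660188-126661652) the levels were 24.9, 28.5 and 32.0 CPM at E14.5 and 6.04, 7.72 and 9.08 CPM at P0 (log2 fold change -1.90; edgeR adjusted p = 0.00109). Nckap5 was thus the most open of the 10 largest losses at E14.5, and its 3 P0 libraries were all below 10 CPM. Another pair of losses lay in Tmem117 (chr15:94921385-94922153; -1.92), which encodes a membrane protein, and in Spag17 (chr3:99970723-99971712; -1.90), which encodes a protein of the ciliary axoneme. Spag17 measured 9.37, 8.32 and 9.81 CPM at E14.5 and 2.08, 4.09 and 1.4998 CPM at P0, and lost its call without E14.5 replicate 3 or P0 replicate 1.

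**Figure D2:**
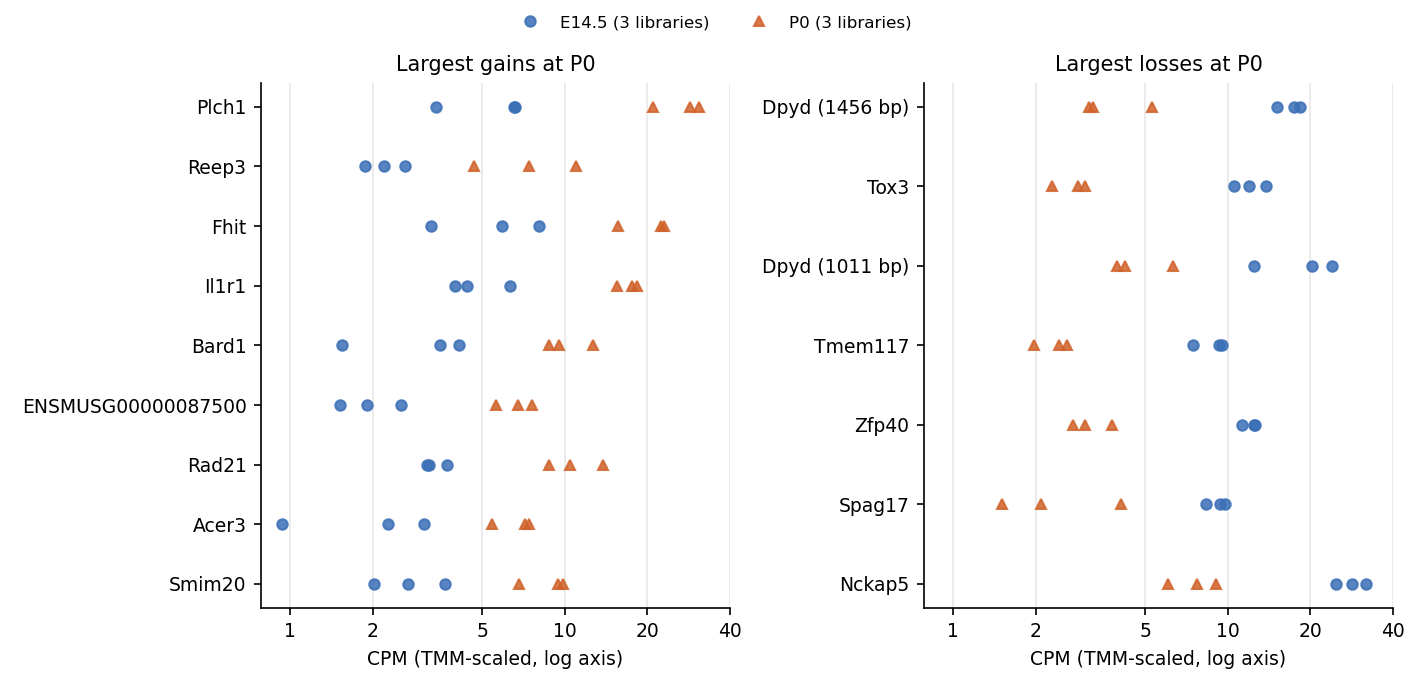
Level of the intronic regions described here among those with the largest gains (left, 9) and losses (right, 7) at P0, 1 row per region named by its host gene, in CPM on a log axis, with circles for the 3 E14.5 and triangles for the 3 P0 libraries. No row has overlapping stages, and most gains start below the E14.5 levels of the losses.

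Genes of the nephron progenitor programme held few intronic regions. Of 20 listed genes, 5 held 19 such regions, with a median log2 fold change of 0.08 beside 0.13 over all intronic regions, and 1 region was called higher and 2 lower (15.8%, beside 6.28% of all intronic regions). Eya1 encodes a phosphatase that partners Six2. Its region at chr1:14217690-14219288 measured 14.7, 17.2 and 19.6 CPM at E14.5 and 6.14, 6.05 and 6.87 CPM at P0, and the stages were far apart (log2 fold change -1.43, SE 0.23; edgeR adjusted p = 0.00370). Itga8 is the integrin by which the cells were selected. Its region at chr2:12221390-12222681 measured 27.05, 24.8 and 36.6 CPM at E14.5 and 7.50, 11.2 and 16.5 CPM at P0. The P0 libraries were spread but all below E14.5 (log2 fold change -1.31, SE 0.27; edgeR adjusted p = 0.0120), while the median over the 3 intronic regions of Itga8 was 0.14. Robo2, the Slit receptor that restricts Gdnf expression in the kidney, had a region (chr16:74348478-74348946) at 4.63, 4.90 and 3.39 CPM at E14.5 and 10.9, 9.08 and 11.1 CPM at P0. All P0 libraries were above, at about the same level (log2 fold change 1.26, SE 0.28; edgeR adjusted p = 0.0189). Only the Eya1 call held in all 17 alternatives. Those of Itga8 and Robo2 were lost without E14.5 replicate 3 or P0 replicate 1, and that of Robo2 also without E14.5 replicate 1.

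Among 27 genes of nephron differentiation, 9 held 55 intronic regions, of which 2 were called higher and 4 lower (10.9%, beside 6.28% of all intronic regions; median log2 fold change 0.11). All 4 losses were in Magi2, which encodes a scaffold protein of the podocyte slit diaphragm and holds 22 intronic regions. The call with the smallest p among them (chr5:19862432-19863900) measured 22.5, 26.9 and 32.8 CPM at E14.5 and 10.4, 13.8 and 12.31 CPM at P0. The groups were apart, with a log2 fold change of -1.18 (SE 0.21; edgeR adjusted p = 0.00659), and the other 3 log2 fold changes ran from -1.22 to -0.81. The gains lay in Cubn, the tubular endocytic receptor cubilin (0.76), and in Mecom, a zinc finger factor of distal nephron segments. The Mecom region (chr3:30475065-30476446) measured 9.25, 16.03 and 6.89 CPM at E14.5 and 28.5, 25.9 and 27.2 CPM at P0. Its P0 libraries agreed closely and E14.5 replicate 2 stood nearest to them (log2 fold change 1.33, SE 0.26; edgeR adjusted p = 0.0108). None of the 55 was called without E14.5 replicate 3 or P0 replicate 1.

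Of 27 genes of growth factor signalling, 16 held 48 intronic regions, with 2 called higher, 1 lower and a median log2 fold change of 0.11. The called share was 6.25%, about that of all intronic regions (6.28%). Fgf1 encodes a ligand of the FGF receptors. Its region at chr18:38881904-38882752 measured 11.6, 13.2 and 10.3 CPM at E14.5 and 30.9, 19.8 and 33.5 CPM at P0, with every P0 library above (log2 fold change 1.27, SE 0.23; edgeR adjusted p = 0.00657). Erbb4, a receptor of neuregulins, held a gain and a loss. The gain (chr1:68119679-68121087) measured 15.5, 18.6 and 10.3 CPM at E14.5 and 39.1, 36.0 and 30.2 CPM at P0 (log2 fold change 1.24; edgeR adjusted p = 0.00724). The loss (chr1:68573694-68575135) measured 9.73, 14.4 and 17.4 CPM at E14.5 and 7.50, 4.54 and 6.00 CPM at P0 (log2 fold change -1.19; edgeR adjusted p = 0.0261). The E14.5 replicate 1 value of the loss lay close to the P0 level. All 3 calls were lost without E14.5 replicate 3 or P0 replicate 1. Genes of developmental timing, such as the let-7 targets Hmga2 and the Igf2bp family, held 7 intronic regions in 6 of 15 genes, and none was called. Of these, Igf2bp3 measured 4.98, 6.31 and 4.55 CPM at E14.5 and 11.9, 11.8 and 6.95 CPM at P0, a log2 fold change of 0.93 that did not pass the threshold. The promoter region of Igf2bp3 went the other way, at 30.1, 32.8 and 41.0 CPM at E14.5 and 14.58, 8.32 and 15.6 CPM at P0. Of the 15 timing genes 9 had a promoter region in the table, and 2 promoter regions were called lower, where 0.48% of all promoter regions were.

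Markers of other cell types held few intronic regions, namely 3 stromal, 4 endothelial, 1 ureteric, 6 immune and 4 neural ones. Of these, 2 were called, both gains, 1 of the 3 stromal and 1 of the 4 endothelial regions. Of all intronic regions, 2.74% were called higher. A region of the pericyte proteoglycan gene Cspg4 (chr9:56870505-56872054) measured 11.6, 8.85 and 7.36 CPM at E14.5 and 16.5, 16.8 and 17.3 CPM at P0 (log2 fold change 0.86; edgeR adjusted p = 0.0446). A region of Cdh5, the cadherin of endothelial junctions (chr8:104122797-104124024), measured 8.78, 11.6 and 6.66 CPM at E14.5 and 16.3, 19.7 and 15.9 CPM at P0 (log2 fold change 0.93; edgeR adjusted p = 0.0411). Neither call held in all alternatives. The summed stromal regions (3 genes) ran from 28.4 to 34.2 CPM at E14.5 and from 34.3 to 40.6 CPM at P0. Over the endothelial regions (4 genes) the sums ran from 89.8 to 94.2 CPM and from 81.8 to 107 CPM, and over the immune regions (3 genes) from 66.4 to 90.7 CPM and from 59.5 to 67.7 CPM. The neural regions (3 genes) summed to between 21.3 and 28.5 CPM at E14.5 and between 26.2 and 41.8 CPM at P0, and 1 neural gene sum was called higher, that of Elavl4, which encodes an RNA-binding protein of neurons. Elavl4 summed to 13.998, 9.98 and 10.6 CPM at E14.5 and 23.1, 26.2 and 16.5 CPM at P0, without overlap. The 4 promoter regions of Elavl4 did not rise with this sum. They measured 137.8, 163.6 and 165.1 CPM at E14.5 and 147.0, 118.0 and 134.1 CPM at P0, and the stages overlapped. The single ureteric region, in Elf5, summed to between 9.20 and 10.7 CPM and between 11.3 and 13.0 CPM. No erythroid gene held an intronic region. The part of other cell types in the intronic differences was not tested.

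Genes of neuronal adhesion, many of which are very long, held 463 of the 9732 intronic regions under 28 identifiers, 2 of which name Dpp10. Of these regions 11.2% were called (beside 6.28% of intronic regions), 15 higher and 37 lower, with a median log2 fold change of 0.08. Host length was known for 22 identifiers, and 14 of them were 1000 kb or longer. Over all intronic regions in hosts of that length, 3.43% were called higher and 9.35% lower. The called share of the list is therefore not particular to neuronal adhesion genes. Called regions stood under 22 of the 28 identifiers, of which 12 had only losses, 5 only gains and 5 both. The direction of the list turned without E14.5 replicate 2 (39 higher, 33 lower). It was 4 and 23 without E14.5 replicate 1, 1 and 7 without E14.5 replicate 3, and 0 and 11 without P0 replicate 1. Among those with the smallest p were regions of Cntn4, Lsamp and Dlg2, which encode a contactin, a neural cell adhesion protein and a synaptic scaffold protein. The Cntn4 region (chr6:106425164-106427463) measured 25.9, 36.5 and 41.3 CPM at E14.5 and 9.16, 13.5 and 11.7 CPM at P0, and the groups did not overlap (log2 fold change -1.60; edgeR adjusted p = 0.00234). The Lsamp region (chr16:41936639-41939178) fell from 33.2, 44.2 and 45.8 CPM to 14.4, 14.23 and 18.2 CPM (log2 fold change -1.39; edgeR adjusted p = 0.00265). The Dlg2 region (chr7:92184303-92185113) fell from 26.8, 32.7 and 31.3 CPM to 10.6, 8.47 and 13.7 CPM (log2 fold change -1.45; edgeR adjusted p = 0.00265). In both, every E14.5 library was above every P0 library.

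Gains and losses occurred inside the same gene. The 611 called regions fell in 472 genes, of which 94 held at least 2. Of these 94, 44 held called regions of both directions, 34 only losses and 16 only gains. Gains were 43.7% of all called regions, so that genes with both directions are to be found at such a split. Whether genes mixed the directions more or less often than the split alone gives was not tested. Genes with both directions numbered 2 in the fit that left out E14.5 replicate 3, 1 in that without P0 replicate 1, 14 in that without E14.5 replicate 1, 70 in that without E14.5 replicate 2 and 29 in that without P0 replicate 2.

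Macrod2, which encodes an enzyme that removes ADP-ribose from proteins, had the most called regions, with 8 losses and 2 gains among 42. Numbered by position along the chromosome, the losses of Macrod2 included regions 7 and 8, at -1.65 and -1.37 on the log2 scale, and regions 25, 26 and 27, at -0.97, -0.77 and -0.77. Its gains were regions 19 and 38, at 1.31 and 1.29. Lsamp held 5 losses and 2 gains among 45, with regions 39 and 40, 95.7 kb apart, both lower (-1.15 and -1.39). All 6 called regions of Dlg2, of 27, were losses, in 3 pairs next to each other in the intronic numbering: regions 6 and 7 (0.534 kb apart), 16 and 17 (37.2 kb) and 22 and 23 (41.8 kb). A promoter region of Dlg2 that did not pass the test (log2 fold change 0.13) lay between regions 22 and 23. Cntnap2, a neurexin-related gene, showed 4 gains and 2 losses among 31, and Elmo1, which encodes an activator of the GTPase Rac, 3 gains and 1 loss among 21. Fhit had gains at its regions 5 and 21 (1.80 and 1.26) and losses at its regions 1 and 19 (-0.90 and -1.35), of 23.

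**Figure D3:**
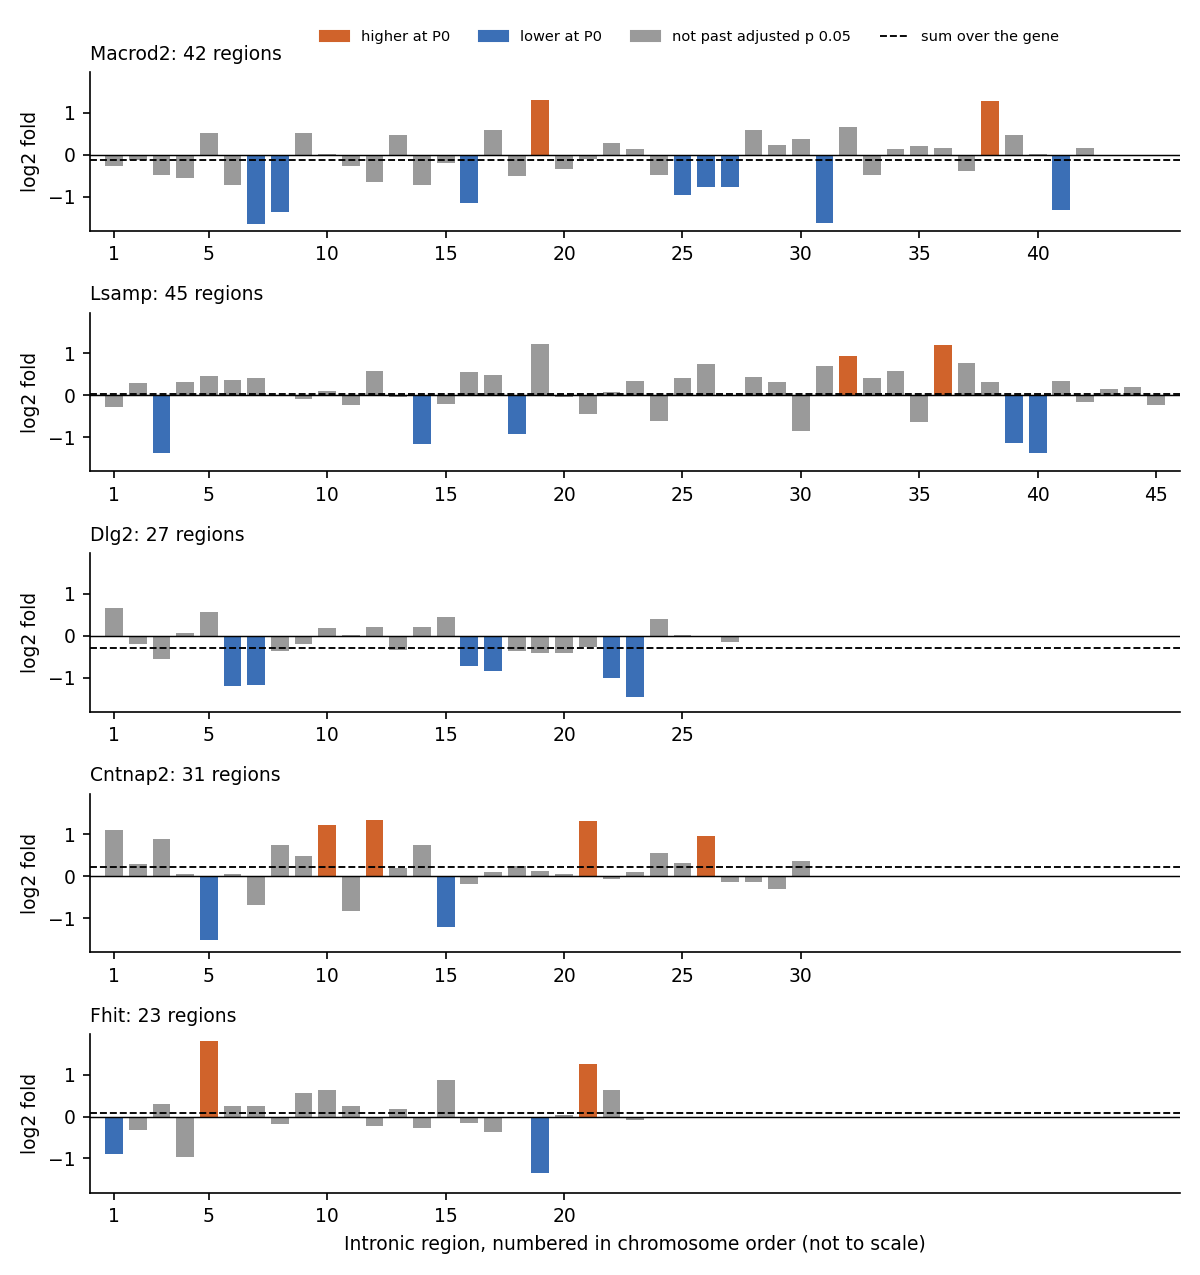
Log2 fold change (P0 over E14.5) of each intronic region of 5 genes with many called regions, numbered in chromosome order and not drawn to scale; orange and blue bars passed the test, grey bars did not, and the dashed line is the log2 fold change of the gene's sum. The called losses of Dlg2 form 3 separate pairs in the numbering, while Cntnap2 mixes 4 gains with 2 losses, and each dashed line lies between -0.30 and 0.22.

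Summing all intronic counts of a gene removed most of these differences. Of 3863 gene sums, 117 (3.03%) passed the same test in a table that also held every other region as its own feature, in which 3.73% of 37654 features passed (1.3% higher, 2.44% lower). Of the 117, 61 (1.58% of the sums) were higher and 56 (1.45%) lower, the median log2 fold change of the sums was 0.11, and 733 sums had an unadjusted p under 0.05. The sums called were 85 genes of 1 region, 25 of 2 and 7 of at least 3. None of the 101 genes with 11 or more regions passed, while 3.41% of their 1615 regions were called higher and 6.38% lower. Of the 94 genes with at least 2 called regions the sum passed in 6, and in none of the 44 with both directions. Without E14.5 replicate 3 there were 8 sums called, without P0 replicate 1 there were 15, and without E14.5 replicate 1 there were 43.

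For Macrod2 the summed level was 653, 843 and 679 CPM at E14.5 and 694, 677 and 624 CPM at P0. The stages overlapped and the log2 fold change was -0.13 (edgeR adjusted p = 0.768). The sums of Lsamp (0.03), Fhit (0.10), Cntnap2 (0.22), Elmo1 (0.31), Magi2 (-0.19), Dlg2 (-0.30) and Pcdh9 (-0.52) did not pass either. Pcdh9, which encodes a protocadherin, came nearest, with 220, 229 and 232 CPM at E14.5 and 161, 151 and 164 CPM at P0 (edgeR adjusted p = 0.110). Its stages did not overlap, and 4 of its 15 regions were called, all lower.

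Among genes with at least 3 intronic regions, the largest sum gain was that of Plcl1, a phospholipase C-like gene, at 29.2, 40.2 and 36.2 CPM at E14.5 and 66.3, 69.6 and 56.0 CPM at P0. Every P0 library lay above every E14.5 library (log2 fold change 0.86, SE 0.19; edgeR adjusted p = 0.0245). The sums of Fgf1 (0.83), Plch1 (0.80), ENSMUSG00000102067 (0.78) and the phospholipid flippase gene Atp8a1 (0.75) also rose. The only called loss among these sums was that of ENSMUSG00000097836, a gene without a name in the table, at 47.8, 56.6 and 63.3 CPM at E14.5 and 31.4, 30.7 and 31.4 CPM at P0. Its P0 libraries were nearly equal and all lower (log2 fold change -0.84, SE 0.18; edgeR adjusted p = 0.0210). All 6 of these sums lost their calls without either E14.5 replicate 3 or P0 replicate 1.

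Of the 472 genes with a called intronic region, 368 had a promoter region, and a promoter region was called in 5 of these genes. Of all promoter regions 0.871% were called. That share counts regions and not genes, and some of the 368 genes had several promoter regions, so that the 2 figures are not directly comparable. The 2 that fell were those of the semaphorin gene Sema6d (-1.34) and of the lipid transfer gene Vps13d (-0.80). The 3 that rose were those of the adaptor gene Nck2 (1.43), Nav3 (1.03) and 1 of the 2 promoter regions of Atp8a1 (chr5:67815421-67816164; 0.94). The other Atp8a1 promoter region (chr5:67777768-67778987) had a log2 fold change of -0.73 that did not pass the threshold (edgeR adjusted p = 0.0911). Nav3, which encodes a microtubule-associated navigator protein, had a promoter at 16.8, 23.9 and 15.3 CPM at E14.5 and 47.5, 31.0 and 36.6 CPM at P0. All 3 called intronic regions of Nav3, of 23, were lower at P0. The median promoter log2 fold change was 0.01 in the 151 genes with only intronic gains and -0.08 in the 180 with only intronic losses, beside -0.11 for all promoter regions.

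The promoter of Dpyd, whose intron held the deepest loss, measured 76.5, 76.1 and 70.1 CPM at E14.5 and 70.7, 75.2 and 69.6 CPM at P0. The stages overlapped there (log2 fold change -0.05; edgeR adjusted p = 0.930). The Il1r1 promoter, 4.5 kb from its intronic gain, measured 24.6, 23.9 and 23.6 CPM at E14.5 and 21.8, 26.3 and 22.1 CPM at P0 (log2 fold change -0.04; edgeR adjusted p = 0.939).

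Losses were most frequent in the longest genes. In host genes of at least 1000 kb by RefSeq, 60 of 642 regions (9.35%) were lower at P0, and in host genes under 50 kb 26 of 1116 (2.33%). The share of gains was 3.43% and 2.78% in the same classes. Between these, the share of losses was 1.72%, 2.58%, 3.41% and 4.23% for hosts of 50 to 100, 100 to 200, 200 to 500 and 500 to 1000 kb. The median log2 fold change of the longest class was 0.06 and that of the shortest 0.11. Median counts and widths also differed, at 10.4 CPM and 1337.5 bp in the shortest class and 12.27 CPM and 1489.5 bp in the longest, and the part of the level in the calls was not tested. In the longest class, losses and gains were 42 and 7 without E14.5 replicate 1, 54 and 46 without E14.5 replicate 2, 13 and 4 without E14.5 replicate 3 and 16 and 2 without P0 replicate 1. The share of losses stayed above that of genes under 50 kb without E14.5 replicate 3 (2.02% and 0.27%) and without P0 replicate 1 (2.49% and 0.36%).

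**Figure D4:**
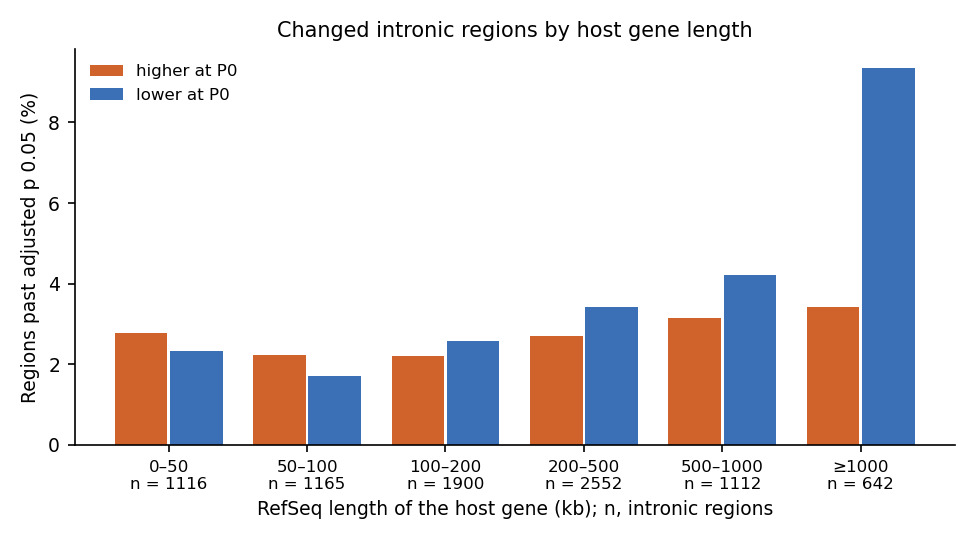
Share of intronic regions that passed the test (y axis, %), higher (orange) or lower (blue) at P0, by the RefSeq length of the host gene (x axis, kb; n is the number of regions). The blue bars reach 9.35% at 1000 kb or more, and the orange bars stay between 2.21% and 3.43%.

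Losses also lay farther from open promoters. The median distance to the nearest promoter region was 106 kb for called losses, 62.6 kb for called gains and 64.5 kb for intronic regions that were not called. Of the 310 intronic regions at 500 kb or more from a promoter region, 8.06% were lower and 1.94% higher, and of the 267 within 5 kb 2.25% were lower and 3.37% higher. Distance and host length go together, and they were not separated here. The median position along the gene was 49.1% of its length for losses, 48.9% for gains and 49.5% for regions not called.

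Motif matches listed in the table differed between the called sets. A forkhead match was listed for 38.4% of the 344 losses (132 regions), 17.6% of the 267 gains and 22.1% of the regions that were not called. The share among losses was between 35.7% and 40.7% in every fit compared, those without each library included. Forkhead factors such as Foxc1 and Foxc2 are expressed in the kidney mesenchyme, but the listing does not show which factor was bound. Matches for Meis homeobox factors followed the same order, at 12.2%, 5.62% and 7.07%. Sall matches were listed for 5.81% of losses, 10.1% of gains and 12.2% of the regions not called, and Smad matches for 4.94%, 4.87% and 9.55%. Six2 matches were listed for 2.03%, 5.62% and 3.33%, and none of the gains that remained without E14.5 replicate 3 or P0 replicate 1 had one. Holders of a forkhead match were wider than intronic regions as a whole, at a median of 1640 bp beside 1427.5 bp, and fell in 6.02% and rose in 2.15%. These shares are descriptions of the table's annotation, and no test of enrichment was made.

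**Figure D5:**
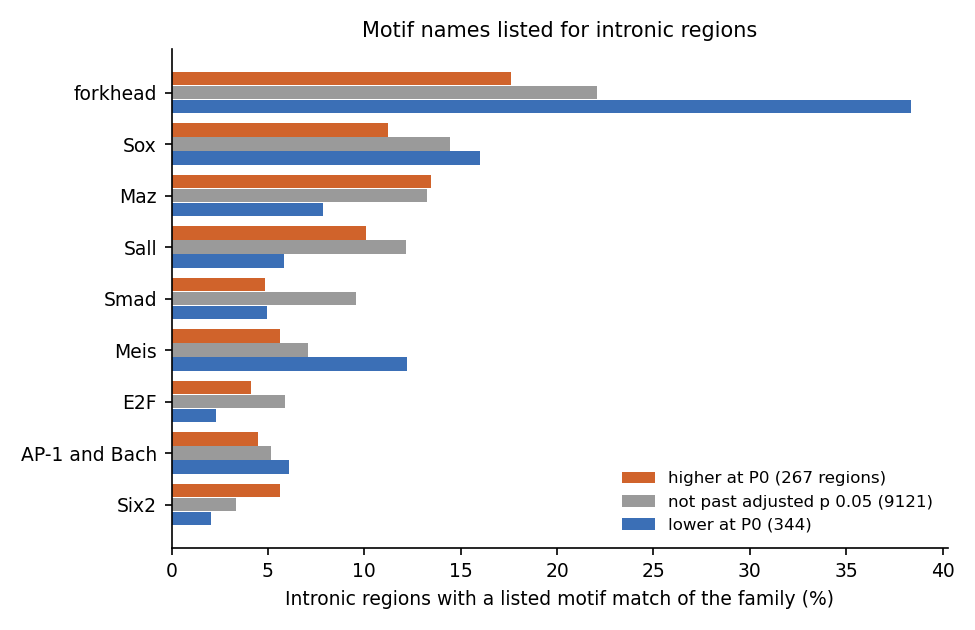
Share of intronic regions with a listed motif match of each family (x axis, %) among the 267 gains (orange), the 344 losses (blue) and the 9121 regions that did not pass the test (grey). The forkhead bar of the losses, at 38.4%, is the longest, and the Meis bar of the losses also exceeds its grey bar.

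Enhancer catalogues covered few of the called regions. An overlap with a FANTOM enhancer was listed for 9.86% of intronic regions, for 7.87% of gains and for 5.52% of losses. The header of that column names the build mm9, while the regions are in mm10. Some listed entries lie far outside their region in the coordinates as printed, so that these were not matched without conversion. How the entries were converted is not given in the sources used here. Among the called ones was a loss in Hs3st2, a heparan sulfate sulfotransferase gene (chr7:121469005-121470302; log2 fold change -1.58; edgeR adjusted p = 0.00213), and a gain in the actin-interacting gene Filip1l (chr16:57419343-57420207; 1.27; edgeR adjusted p = 0.0129). Of 94 intronic regions overlapping an element tested in the VISTA collection, 4 were called, all lower, where 6.28% of all intronic regions were called and 3.53% lower. They lay in Zfhx4 (-0.72), a zinc finger homeobox gene, Chd9 (-0.97), a chromatin remodeller gene, Nrxn3 (-0.84), a neurexin gene, and 2210408I21Rik (-0.83). The Chd9 region (chr8:90861740-90862441) measured 9.37, 11.1 and 11.9 CPM at E14.5 and 5.41, 6.05 and 5.13 CPM at P0. The Hs3st2, Filip1l and VISTA regions were chosen after their values were seen.

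In the authors' deposited table, 429 intronic regions (4.41%) were classed as opening from E14.5 to P0 and 267 (2.74%) as closing, against 2.86% and 2.48% of all regions. Of the classes in the authors' deposited table, 262 opening regions were among the 267 called higher here, and 254 closing regions among the 344 called lower. The other 95 called regions, 90 of them lower, were classed as stable in the authors' deposited table. Gains were therefore the larger class in the authors' deposited table and losses the larger one in the edgeR fit.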

How the data were processed

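ATAC-seq was done on nephron progenitors from pooled kidneys (up to 24) of single litters, digested for 15 minutes at 37 °C, selected with Itga8 beads and transposed as 50000 cells per library, per the labels' protocols. The deposited table gave whole-number counts per region and library, per the file headers. The genome build is mm10, per the submitters' processing notes. The aligner, peak caller, counting rule, treatment of duplicates and any Tn5 shift are not given in the sources used here, and their effect on the counts was not assessed. The authors' deposited log2 fold change, score (a t statistic) and p-value columns come from a model not given in the sources used here, and only the authors' class of change was used, for the comparison with the classes of opening and closing regions. The motif set and the way FANTOM and VISTA entries were matched are not given in the sources used here either.

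Of 45489 rows, 1966 repeated a listed region and were dropped. Classes followed the annotation columns, with promoter before exon before gene, and every intronic region listed exactly 1 gene identifier. Names came from the table for 8638 of the 9732 intronic regions and from RefSeq gene spans for 582, while 512 had none. RefSeq (GRCm38.p6) gave host lengths for 8487 regions and the printed sequences. In 569 intronic regions at least 2 RefSeq genes covered the midpoint, so that the host is uncertain there.

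All 43523 regions were fitted with edgeR 4.0.16 in R 4.3.3 (TMM scaling, filterByExpr, which removed 0 regions, quasi-likelihood F test, stage as the only term), with Benjamini-Hochberg adjustment over all regions and a threshold of 0.05. CPM used TMM-scaled library sizes. Gene sums replaced their regions in a second table of 37654 features. On simulated counts for 43523 regions, 37% of 200 regions changed 2-fold were recovered and 9 unchanged ones were called. In the gene-sum table of 37654 features the values were 44.5% of 200 and 5. Intervals of shares are 95% Wilson intervals. Alternatives used DESeq2 1.42.0, limma 3.58.1, other scalings, filters and region sets, a replicate block and fits without each library. Values were summarised in Python 3.11.15 (numpy 2.4.6, pandas 2.3.3, scipy 1.17.1) and drawn with matplotlib 3.10.9.

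Regions named are the 10 strongest gains and the 10 strongest losses among called regions whose stages do not overlap, called regions in the 11 gene lists (the 4 with the smallest p per list where there are more), gene sums of at least 3 regions (5 per direction) and the genes with the most called regions. Regions with a printed sequence, other called regions of those genes, host promoters, regions in enhancer catalogues, and the values of Igf2bp3 and of the Elavl4 sum were added after their values were seen. The members, lists and tests were chosen with earlier results of these data known. The values of a few of the regions and genes that these rules name are not reported here.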

Additional observations from a re-analysis of the deposited data

How the results depend on the processing

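The number of called intronic regions (611) was within 1.5 times under every alternative of scaling, filter, test and region set, at 558 to 815. Leaving out 1 library each gave 88 to 904 called regions, 21 to 556 higher, 66 to 360 lower and 1 to 70 genes with both directions. The lowest counts came without E14.5 replicate 3 and P0 replicate 1, and the highest without E14.5 replicate 2. The share of gains among called regions (43.7%) ranged from 17.1% to 61.5% over these fits, and the larger direction turned to gains without E14.5 replicate 2 (61.5%). It also turned with total-count scaling (50.6%) and was 29.4% with TMM on intronic regions alone. For gene sums (117), leaving out 1 library gave 8 to 143 called, 1 to 86 higher and 7 to 62 lower. DESeq2's Wald test called 200 sums, 115 higher and 85 lower, and found 67 genes with regions of both directions. TMM on intronic regions alone left 30 sums higher. The difference in the intronic share of counts (1.34 points) ran from 0.89 to 1.99 without 1 library each. The cause of these changes was not tested.

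With the replicate number as a block, 530 regions (215 higher, 315 lower), 36 genes with both directions and 83 sums (36 higher, 47 lower) were called. The labels do not say that a number pairs litters, and the correlations of deviations between same-numbered libraries were 0.07, -0.14 and 0.07 over all regions, so that the numbers were not taken as pairs. The block ended the calls of 3 named regions and 3 named sums.

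Of the 35 named regions 17 kept their calls in all 17 alternatives, and of the 6 named called sums none did. Leaving out E14.5 replicate 3 ended the calls of 17 named regions, and leaving out P0 replicate 1 did so for 17. The sum of Pcdh9 passed with DESeq2's Wald test alone (-0.52; adjusted p = 0.0171). Keeping only regions that list 1 gene identifier gives the same set. Chosen after seeing the data, leaving out regions within 5 kb of a promoter region left 596 calls, and leaving out those under 2 or more RefSeq genes left 577. The median intronic region had 102 counts. Over all 43523 regions, promoters included, the simulation recovered 37% of 2-fold changes when 200 regions were changed. Recovery at the intronic level, or with as many changes as in the data, was not measured. A region that was not called is therefore not shown to be unchanged.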

Other observations

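Some of the most accessible intronic regions varied widely within a stage, and 3 of them are given here, chosen after their values were seen. Others, such as that of Cast at 127.5, 97.6 and 116.1 CPM at E14.5, varied less. Whether reads of repeated sequence add to their levels was not tested. The region with the highest level, in Mdga2, measured 453, 267 and 433 CPM at E14.5 and 324, 527 and 251 CPM at P0. A region of Tcte2 measured 287, 380 and 483 CPM at E14.5 and 228, 289 and 180 CPM at P0, and its midpoint lay outside the RefSeq span of that gene. A region of Sfi1 measured 171, 81.4 and 140 CPM at E14.5 and 165, 184 and 85.3 CPM at P0. In the Mdga2 and Sfi1 regions, E14.5 replicate 2 and P0 replicate 3 were the lowest libraries of their stages, and in none of the 3 did the difference between the stages pass the test.

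The table also listed predicted target genes for 4226 intronic regions. The host gene was among the targets of 0 of these regions. Of 42154 pairs of a region and a target with a known chromosome in RefSeq, 203 (0.482%) were on the same chromosome, and 30 of 4182 regions had any target on their own. By contrast, all 960 FANTOM entries listed for intronic regions were on the region's chromosome. The target columns were therefore used for nothing else.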
